A study of Mus musculus with 8 samples.

Results

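MicroRNAs (miRNAs) of the imprinted Dlk1-Dio3 region were compared between Kupffer cells (KC), which are liver-resident macrophages, and monocytes from blood (MNC). The donors were Balb/C mice, and the labels name no treatment. The rule for the members used names and no measured value: it took every mouse row of the panel whose miRNA number was one of 43 numbers assigned to this region, with any letter or arm suffix. All 43 numbers had a row, and the rule took 55 of the 566 mouse miRNA rows. There were 4 KC samples and 4 MNC samples. Per the labels each sample was a pool of sorted cells from 5 mice, and 100 ng of total RNA entered the reaction, whereas the description of the assay in the study allows for smaller pools. Both cell types were enriched on magnetic beads against F4/80, after a density gradient. The steps before the sort differed: the gradient medium and its settings were not the same, and only the liver was perfused, digested with collagenase and spun to remove parenchymal cells. Tissue and preparation therefore cannot be told apart. The age of the mice is not given in the sources used here. Nothing in the labels ties a KC pool to an MNC pool.

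The Dlk1-Dio3 region holds protein-coding genes expressed from the paternal chromosome, among them Dlk1, Rtl1 and Dio3, and non-coding RNAs expressed from the maternal chromosome. The maternal transcripts Meg3, Rtl1as, Rian and Mirg carry miRNA hairpins and small nucleolar RNAs, and are known mainly from the embryo, the placenta and the brain. The miRNAs on Rtl1as, the antisense strand of Rtl1, pair fully with the Rtl1 mRNA and direct its cleavage. A miRNA recognises other targets mainly through its seed, the bases near its 5′ end, and mice without the large hairpin group from miR-379 to miR-410 are known for a disturbed metabolic switch of the liver at birth.

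Sequences from RefSeq (mouse assembly GRCm38.p6) were found for 53 of the 55 rows, and miR-299 and miR-496 were not matched. The rows mapped to 43 hairpins. All 43 lay on the plus strand of chromosome 12 within 171.8 kb, with the widest gap, 90.7 kb, between the hairpins of miR-370 and miR-379. Of the 43 hairpins, 10 overlapped the annotated gene Rtl1, 2 overlapped Rian and 7 overlapped Mirg, none overlapped Meg3, and 24 overlapped none of these. The panel named the arm of the hairpin for 20 rows. For 29 rows it named none although RefSeq lists both arms, so which strand such a probe reads is not settled here. For 4 more rows, miR-376c, miR-485, miR-487b and miR-539, the panel named no arm and RefSeq lists 1, so the strand printed below for miR-376c and miR-539 is the one listed and may not be the one the probe reads.

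The sequences below are those on which the results turn: the highest row, miR-376a, with its relatives of the miR-376 group, then miR-539, and the hairpins of miR-654 and miR-380, whose arms differed in counts. Capitals mark the seed, bases 2 to 8.
miR-376a-5p: gGUAGAUUcuccuucuaugagu
miR-376a-3p: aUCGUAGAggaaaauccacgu
miR-376b-5p: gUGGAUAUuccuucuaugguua
miR-376b-3p: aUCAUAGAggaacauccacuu
miR-376c-5p: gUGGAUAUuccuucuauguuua
miR-539-5p: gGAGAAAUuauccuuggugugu
miR-654-5p: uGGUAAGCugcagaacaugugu
miR-654-3p: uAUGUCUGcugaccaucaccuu
miR-380-5p: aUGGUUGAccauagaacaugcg
miR-380-3p: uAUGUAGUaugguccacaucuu
The 3p strands of miR-376a and miR-376b differ at 3 positions, G4A, A13C and G20U, counted from the 5′ end with the base of miR-376a first, and 1 of the 3 is in the seed. The 5p strands of miR-376b and miR-376c share the seed UGGAUAU, which miR-376a-5p does not carry. The mature miR-376a strands lie at chr12:109723786-109723807 and chr12:109723824-109723844, and miR-539-5p lies at chr12:109728136-109728157. Among all mature strands matched, shared seeds were otherwise found for 2 pairs, miR-379-3p with miR-411-3p (AUGUAAC) and miR-410-5p with miR-494-5p (GGUUGUC).

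The deposited values are a normalised signal. In each sample it equals the number of barcodes counted times a single factor, 1.53 to 1.76 in KC and 0.589 to 1.06 in MNC, which brings 4 mRNA rows to the same level. Dividing by the factor gave back the barcode counts, and the levels below are these counts unless signal is named. The counts of all mouse miRNAs in a sample summed to between 5374 in MNC 1 and 10568 in MNC 2. The members held 7.37% to 8.39% of that sum. Counts of different rows come from different probes, so the order of rows is not an order of abundance. Of the marker rows, the leukocyte miRNA miR-142-5p reached a mean count of 506 ± 42.6 (SD, n = 4) among the KC samples. Among the MNC samples it reached 605 ± 104 (SD, n = 4). The row of miR-142-3p averaged only 23.0 counts among the KC samples and 24.0 among the MNC samples. It was above background in 2 KC samples and in no MNC sample. The myeloid miR-223 was at background in all 8 samples. The hepatocyte miRNA miR-122 stood at 458 ± 222 in KC and 4.50 ± 2.38 in MNC, the red cell miRNA miR-486 at 96.8 ± 16.6 and 365 ± 252, and the lymphocyte miRNA miR-150 at 74.2 ± 39.4 and 252 ± 196. The red cell miRNA miR-451 went the same way as miR-486 (7.25 and 25.2). Other rows of these lists differed less, namely miR-194 and miR-192 for hepatocytes (the latter 24.2 and 19.2), miR-144 for red cells (3.00 and 2.75) and miR-181a and miR-181c for lymphocytes (the former 45.2 and 46.0). Summed over the 3 rows of each list, the hepatocyte counts were 217 to 720 in KC and 20 to 72 in MNC, the red cell counts 90 to 123 and 105 to 636, and the lymphocyte counts 82 to 200 and 39 to 525. The part of such other cells in the results on the members was not tested.

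Most miRNAs of the region were not distinguishable from background in either cell type. Background was set in each sample as its highest negative control, a probe with no target in the reaction. This limit was 20, 31, 23 and 25 counts in KC 1 to KC 4 and 17, 35, 21 and 35 counts in MNC 1 to MNC 4. Above it lay 16, 2, 4 and 9 of the 55 members in KC and 5, 2, 10 and 2 members in MNC. The samples of a group thus differed from each other more than the groups did, and the ranges of the groups overlapped. No member was above background in all 4 KC samples, in all 4 MNC samples or in all 8, whereas among the 566 mouse rows 25, 13 and 8 were. Altogether 22 members (40.0%) exceeded the limit in at least 1 sample, against 36.0% of all mouse rows and 42.4% of 33 herpesvirus rows, which have no source in uninfected mice. Only 3 members passed in 4 or more samples (5.45%, against 9.72% of all mouse rows), namely miR-376a in 6, miR-539 in 5 and miR-493 in 4. Of the other 19 members, 11 passed in 2 or 3 samples and 8 in a single sample. By cell type, 8 members passed only in KC samples, 3 only in MNC samples and 11 in both (14.5%, 5.45% and 20.0%), where 16.1%, 2.3% and 17.7% of all mouse rows did so.

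**Figure D1:**
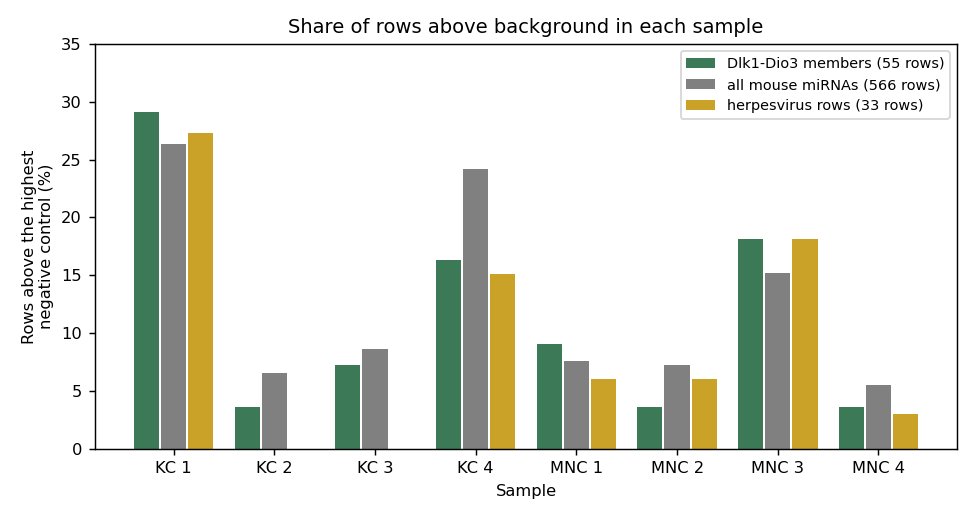
Bars give, for each of the 8 samples, the percentage of rows with more counts than the highest negative control of that sample, for the 55 members, all 566 mouse miRNAs and 33 herpesvirus rows. The members ran from 3.64% (KC 2, MNC 2, MNC 4) to 29.1% (KC 1), and the herpesvirus rows from 0% (KC 2, KC 3) to 27.3% (KC 1).

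The mean count per member was 13.6, 12.9, 11.8 and 13.9 in KC 1 to KC 4, and 8.20, 15.6, 12.02 and 13.6 in MNC 1 to MNC 4. The mean of the 8 negative controls was 12.9, 14.8, 11.9 and 12.4 in the same KC samples, and 9.25, 16.5, 12.1 and 15.1 in the MNC samples. The ratio of the former to the latter lay between 0.878 (KC 2) and 1.12 (KC 4). Without miR-376a the mean in KC 3 fell from 11.8 to 9.74, below its negative control mean of 11.9. These counts are too low to show whether a member near background was absent or present at a low level.

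The members fell into 2 bands of counts along the locus. A limit at a mean count of 10 over the 8 samples, placed after the values had been seen, left 25 members in a low band with a median of 3.50 and 30 in a high band with a median of 19.0. The last member below the limit was miR-544 (mean 8.12) and the first above it was miR-666-5p (mean 11.0). The other mouse rows had the same bands, with 47.7% in the low one and medians of 3.62 and 19.9, and so did the herpesvirus rows (36.4%, medians 3.88 and 18.6). Single negative controls also differed, from a mean of 5.38 to one of 24.4 counts, and 3 of the 8 were under the limit of 10. No low-band member exceeded background in any sample, so all 22 members above background came from the high band. The band limit and the background limits, 17 to 35 counts, were applied to the same counts, so this link was nearly fixed in advance. Low and high rows alternated along the chromosome. For example, miR-127, the Rtl1as miRNA between miR-433 and miR-434, had a mean of 3.50, while miR-433 had 22.0 and miR-434-5p 17.8. The members with the lowest means were miR-543 at 1 count or fewer in every sample, miR-667 (1 to 4 counts) and miR-341 (1 to 5 counts).

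**Figure D2:**
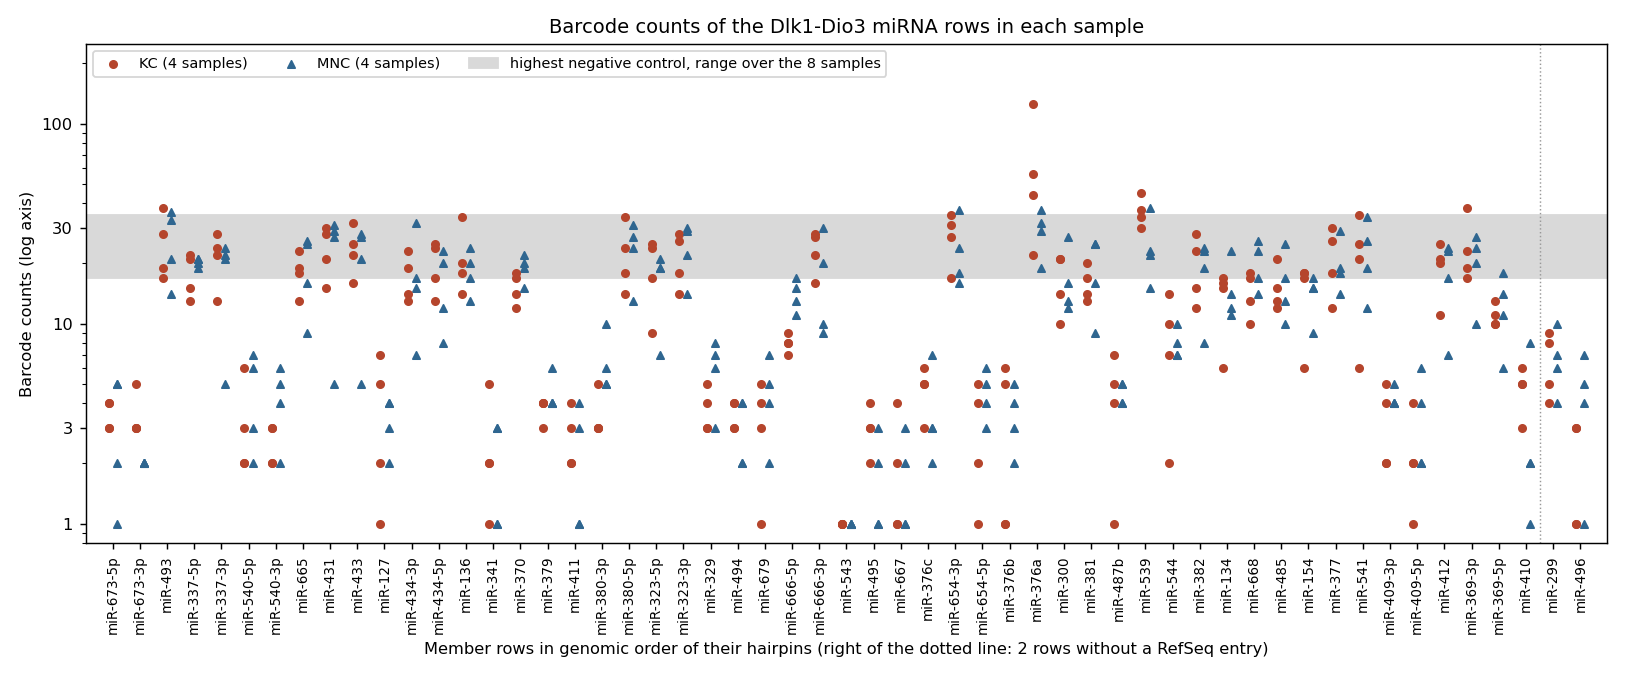
Each column is a member, in the order of the hairpins on chromosome 12, with the barcode count on a log axis in 4 KC samples (circles) and 4 MNC samples (triangles); the grey strip spans the highest negative control of the 8 samples, 17 to 35 counts. Low rows near 3.50 and high rows near 19.0 alternate, and miR-376a in KC 3 is the highest point at 125 counts.

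Both arms of 1 hairpin come from the same precursor, and the panel held both for 10 hairpins. In 8 of them the arms lay in the same band. In miR-654 the 3p arm had a mean of 25.6 and the 5p arm 3.75. In miR-380 the order was the other way, with 5.00 for 3p and 23.1 for 5p. Single negative controls, which have no target, had means from 5.38 to 24.4. These contrasts are therefore not read as a preference for 1 arm. miR-654-3p was counted 35, 27, 17 and 31 times in KC and 16, 24, 18 and 37 times in MNC, above background in 3 samples. miR-654-5p was counted 1, 5, 2 and 4 times in KC and 4, 6, 5 and 3 times in MNC.

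miR-376a was the member with the most counts. It is known for adenosine-to-inosine editing within its group, which changes the seed. It was counted 56, 44, 125 and 22 times in KC 1 to KC 4 and 19, 29, 32 and 37 times in MNC 1 to MNC 4. Its mean of 45.5 was exceeded by 13 of the 566 mouse rows, and its 125 counts in KC 3 by 6. The exact Poisson 95% interval of the KC 3 count, 104 to 149, did not meet that of KC 1, 42.3 to 72.7. Such intervals cover counting error only and not the spread between pools. By the criterion for outlying samples used below, KC 3 was not set apart from the other KC samples for miR-376a. KC 4, with 22 counts, lay below its background limit of 25 and within the range of the MNC samples, so the groups overlapped. On the signal scale it stood at 85.4, 77.4, 206.6 and 34.2 in KC and at 11.2, 21.2, 33.9 and 29.6 in MNC, and there the lowest KC sample lay just above the highest MNC sample. The hairpins of miR-376b and miR-376c lie just upstream on the same strand, and both miRNAs had far fewer counts. miR-376b was counted 1, 1, 6 and 5 times in KC and 2, 4, 3 and 5 times in MNC. miR-376c was counted 5, 3, 6 and 5 times in KC and 3, 7, 2 and 3 times in MNC. Both were under background in all 8 samples, KC 3 included.

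The next members by number of samples above background were miR-539 and miR-493. miR-539, from the miR-379 to miR-410 group, was counted 34, 30, 45 and 37 times in KC and 15, 38, 22 and 23 times in MNC. All KC samples were above all MNC samples except MNC 2. miR-493, upstream of the Rtl1as miRNAs, was counted 28, 17, 19 and 38 times in KC and 21, 36, 14 and 33 times in MNC. Its groups overlapped over most of their range.

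**Figure D3:**
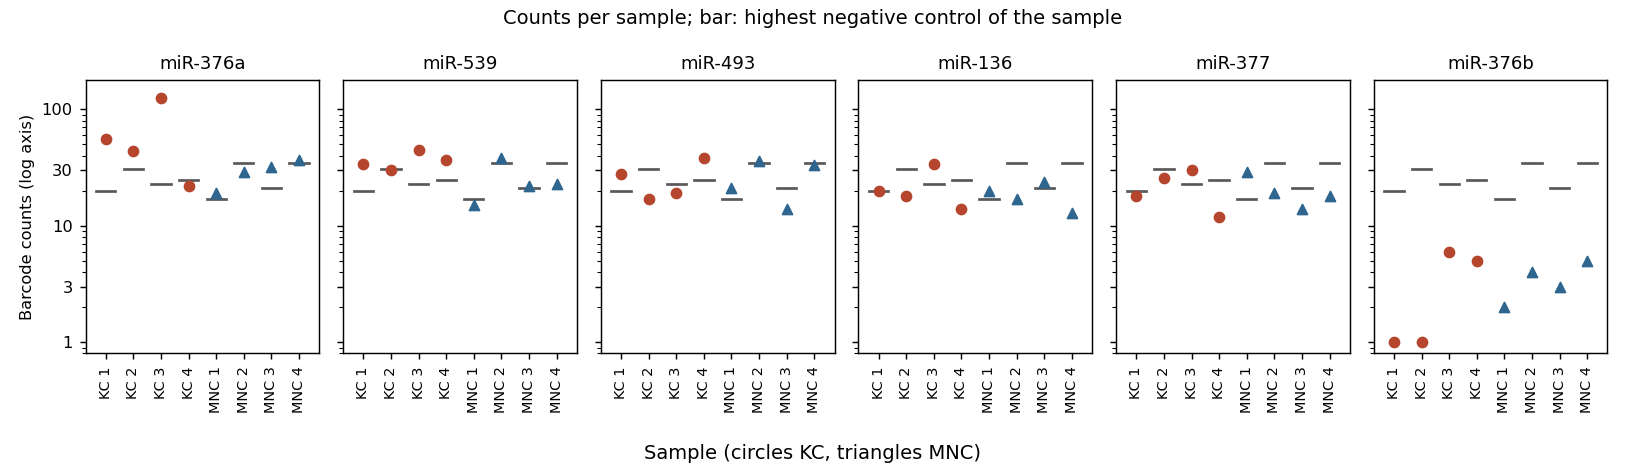
Barcode counts on a log axis of 6 members in each sample (circles KC, triangles MNC), with a bar at the highest negative control of the sample. miR-376a was above the bar in 6 samples, miR-539 in 5, miR-493 in 4 and miR-136 in 3, whereas miR-376b stayed at 1 to 6 counts.

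Among the 6 rows of the Rtl1as miRNAs that target Rtl1, 5 (83.3%) exceeded background in at least 1 sample and miR-127 in none. Of all mouse rows 36.0% did so, and of the herpesvirus rows 42.4%. All 5 were high-band rows, and none of the 6 passed in 4 or more samples. miR-136 was counted 20, 18, 34 and 14 times in KC and 20, 17, 24 and 13 times in MNC, and passed in KC 3, MNC 1 and MNC 3. miR-431 was counted 30, 28, 15 and 21 times in KC and 5, 29, 27 and 31 times in MNC, and passed in KC 1 and MNC 3. miR-433 was counted 22, 32, 16 and 25 times in KC and 5, 27, 21 and 28 times in MNC, and passed in KC 1 and KC 2. The 2 arms of miR-434 passed in KC 1 only. In all of these the KC and MNC counts overlapped.

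Of the 39 rows of the group from miR-379 to miR-410, 13 exceeded background in at least 1 sample and 26 in none. The share that did so was 33.3%, against 36.0% of all mouse rows. miR-134, known for its control of dendritic spine size in neurons, was counted 6 to 17 times in KC and 11 to 23 times in MNC and passed in no sample. Nor did miR-379, miR-410, miR-411, miR-494 and miR-495, each of which stayed at 10 counts or fewer in every sample. Those that passed besides miR-376a, miR-539 and miR-654-3p included miR-380-5p, miR-369-3p and miR-323-3p. miR-369-3p was counted 23, 19, 17 and 38 times in KC and 10, 24, 27 and 20 times in MNC. miR-380-5p was counted 24, 18, 14 and 34 times in KC and 13, 31, 24 and 27 times in MNC. miR-323-3p was counted 26, 28, 14 and 18 times in KC and 14, 29, 22 and 30 times in MNC. None of these 3 separated the cell types. Of the others, miR-541 and miR-666-3p passed in KC 1 and KC 4, miR-377 in KC 3 and MNC 1, miR-300 and miR-412 in KC 1, miR-382 in KC 4 and miR-668 in MNC 3. The 10 remaining members belong to neither set, with 8 on hairpins that also overlap Rtl1 and 2 on Rian. Of the 10, 4 passed (40.0%, against 36.0% of all mouse rows). These were miR-493, both arms of miR-337 and miR-370 on Rian (12 to 18 counts in KC, 15 to 22 in MNC).

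The comparison of KC with MNC asked whether the resident macrophages and the monocytes differ in these miRNAs, and the answer changed with the scaling. On the deposited signal, log2(signal + 1), 14 of the 55 members (25.5%) were higher in KC at an adjusted p under 0.05 by limma, where 24.7% of all 566 mouse rows were, and none was lower (0% of all rows). On barcode counts none of the 55 passed, where 0.177% of all rows were higher and 0% lower, and after scaling to the positive ligation controls 27 members (49.1%) were lower in KC, where 45.6% of all rows were, and none higher (0.53% of all rows). The median difference of the members, KC minus MNC, was 0.91 on log2 signal, against 0.94 for all mouse rows. On log2 counts it was -0.01 against 0 for all mouse rows, and at an unadjusted p under 0.05 by limma 1 member was higher and 1 lower (1.82% each), where 3.0% and 2.12% of all rows were. The shift of 0.94 was thus shared by the whole panel, and differences on signal are also given relative to it.

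miR-376a had the largest fitted difference, 1.86 ± 0.48 (SE) on log2 signal with an adjusted p of 0.0181 by limma, which is 0.92 above the median of all rows. On log2 counts its difference was 0.83 with an adjusted p of 0.996 by limma, and on the scale set by the ligation controls -0.38. Leaving out KC 2 raised the adjusted p on signal to 0.0512 by limma, leaving out KC 3 lowered the difference to 1.42, and leaving out both KC 3 and MNC 1 lowered it to 1.11 with an adjusted p of 0.00778. For miR-539 the difference was 1.64 ± 0.42 (SE) on log2 signal with an adjusted p of 0.0171 by limma, 0.70 above the median of all rows. On log2 counts it was 0.62 with an adjusted p of 0.848 by limma, and on the scale set by the ligation controls -0.57. For miR-493 it was 1.01 on log2 signal and -0.01 on log2 counts, with adjusted p-values of 0.0597 and 1.0 by limma. Of the other 12 members called on signal, 7 had been above background in at least 1 sample (miR-666-3p, miR-433, miR-337-3p, miR-434-5p, miR-369-3p, miR-654-3p and miR-136), with differences of 1.17 to 1.54 on log2 signal. After scaling to the ligation controls these 7 were between -1.01 and -0.62. Of them, miR-666-3p, miR-433 and miR-434-5p had passed only in KC samples, so passing lends no support to their being higher in KC. The other 5 called members, miR-410, miR-673-3p, miR-495, miR-376c and miR-494, had been above background in no sample. miR-410, for instance, was counted 5, 3, 6 and 5 times in KC and 2, 8, 1 and 2 times in MNC. Their fitted differences compare values under background in both groups and are not read as changes in the miRNAs.

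**Figure D4:**
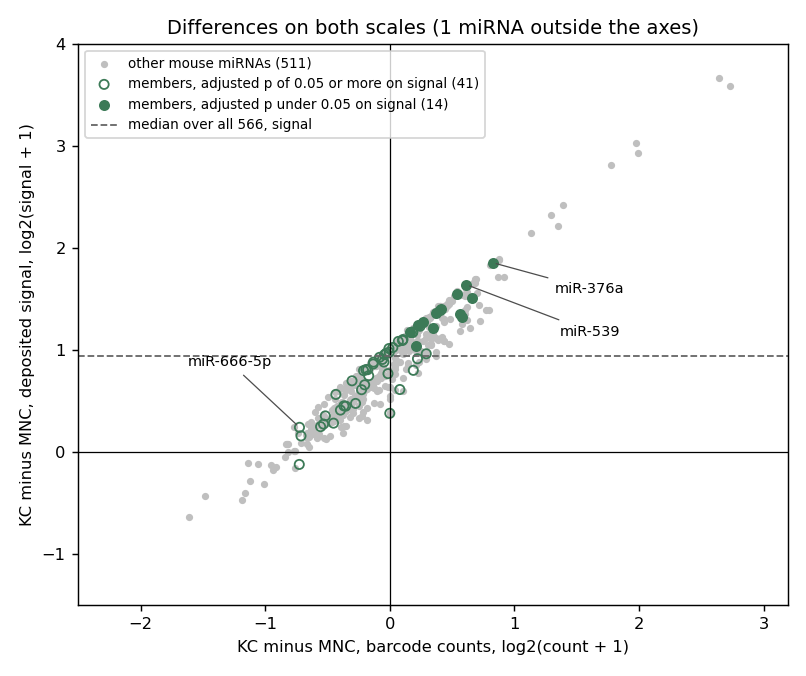
Each point is a mouse miRNA, with the KC minus MNC difference in log2(count + 1) on the x axis and in log2(signal + 1) on the y axis; grey points are the other 511 rows, of which miR-122 lies outside the axes, green circles the 55 members, filled where the adjusted p on signal was under 0.05, and the dashed line is the median of all rows on signal, 0.94. The members lay on the same diagonal as the other rows, around 0 on counts and around the dashed line on signal; after scaling to the ligation controls all 55 differences were negative.

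By place in the region, 3 of the 6 Rtl1as rows were called on signal with a median difference of 1.20, 9 of the 39 rows from miR-379 to miR-410 with a median of 0.88, and 2 of the 10 others with a median of 0.86, all in log2 signal, where 24.7% of all mouse rows were called with a median of 0.94. On log2 counts the medians were 0.20, -0.05 and 0.01, and no row was called. On signal, all KC samples lay above all MNC samples for 19 of the 55 members, where this held for 36.9% of all mouse rows. On counts it held for miR-673-3p alone (3, 3, 5 and 3 against 2, 2, 2 and 2), where 2.3% of all rows did so. The opposite, all KC below all MNC, held on counts for miR-666-5p alone (1.06% of all rows), with 8, 8, 7 and 9 counts in KC and 15, 13, 17 and 11 in MNC. Its difference was -0.73 on log2 counts with an adjusted p of 0.638 by limma, and 0.24 on log2 signal. Neither of the 2 exceeded background in any sample.

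Single samples were low for many members at once, as they were for the rest of the panel. KC 3 was the lowest KC sample, without ties, for 24 of the 55 members (43.6%), where it was the lowest for 40.3% of the other mouse rows. In the high band this held for 22 of 30 members (73.3%) and for 61.8% of the other mouse rows. It was nevertheless the highest KC sample for 10 members (18.2%), and for 10.4% of the other mouse rows. Of these, miR-376a (125 counts, next 56), miR-539 (45, next 37), miR-136 (34, next 20) and miR-377 (30, next 26) were above background in it, and these were the only 4 members above background in KC 3. MNC 1 was the lowest MNC sample for 28 of the 55 members (50.9%) and for 53.2% of the other mouse rows, and in the high band for 80.0% and 79.0%. Without KC 3 and MNC 1 together, 28 members (50.9%) were called on signal by limma, where 46.1% of all rows were, and none on counts (0.177% of all rows). Leaving out KC 1, KC 2 or KC 4 left 5, 4 and 5 members called on signal, while the share called over all rows fell to 5.83%, 4.59% and 7.24%.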

How the data were processed

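miRNA levels were measured with the nCounter Mouse miRNA panel, version 1.5. The authors deposited a normalised signal made with the instrument maker's software. Apart from the spiked controls, every value over 1 in a sample (100%) was a whole multiple of 1 factor, to within 0.02 of a count. The geometric mean of Actb, B2m, Gapdh and Rpl19 was 816 in all samples, background was not subtracted, and scaled values under 1 were listed as 1 (up to 5 members in a sample, MNC only), so a count recovered from such a value is an upper bound. Negative controls carried no factor.

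Differences were fitted with limma 3.58.1 (R 4.3.3) on log2(signal + 1) over all 566 mouse rows, 4 KC against 4 MNC, with a trend in eBayes and Benjamini-Hochberg adjustment. The same fit was also run on simulated counts, which did not carry the factor of the signal, so that run does not test the calls on signal. The p-values measure the spread between these pools. Barcode counts, other scalings, background limits, filters, pseudocounts and left-out samples were tried. The rule for the members reads names only, but it and the lists were set with earlier results of these data known. The members named were taken as those above background in at least 1 sample, the largest differences called, the 3 lowest means and the second arms, with further ones from the biology of the region or picked after their values were seen. Poisson intervals are exact. Coordinates are from RefSeq, GRCm38.p6.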

Additional observations from a re-analysis of the deposited data

Results flagged for a closer look

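In 5 of 70 sets of 4 samples tested, a single sample lay far from the other 3 by Dixon's criterion, which chance gives in about 5% of sets. The gap to the nearest sample is given as a share of the whole range. In MNC 1, miR-337-3p was counted 5 times against 21 to 24 in the other MNC samples (0.842), miR-431 5 times against 27 to 31 (0.846), and miR-323-5p 7 times against 19 to 21 (0.857). MNC 1 had the lowest total of mouse miRNA counts, 5374. In MNC 2, miR-410 was counted 8 times against 1 to 2 (0.857). In KC 4, miR-380-3p was counted 5 times against 3 in each other KC sample (1.0). miR-410, miR-380-3p and miR-323-5p were above background in no sample.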

How the results depend on the processing

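The number of members above background in at least 1 sample was 22, and 17 to 32 under the other limits tried on counts. With the mean negative control as the limit, 18 members passed in all 4 KC samples, 12 in all 4 MNC samples and 9 in all 8. Under the other limits on counts none did. The shares of all rows at that limit were not computed. Set against unscaled negative controls, the deposited signal gave 29 members, with 8 of them above in all 4 KC samples and none in all 4 MNC samples; per sample it gave 25.5% to 47.3% of members in KC and 0% to 21.8% in MNC, against 31.6% to 45.9% and 1.94% to 18.4% of all mouse rows. The number called on signal, 14, was 0 on counts, after scaling to the same total, to the 100 highest rows and by quantiles (0.177%, 1.59%, 1.24% and 0.353% of all rows called), 27 (all lower in KC) after scaling to the ligation controls, 29 after subtracting the mean negative control, 23 with a pseudocount of 10, and 2 of 2 with a filter on the average. The shares of all rows called in the last 4 settings were 46.1% (45.6% lower), 58.7%, 44.5% and 74.1%. Leaving out each sample gave 4 to 18 (4.59% to 31.1% of all rows), and leaving out KC 3 and MNC 1, chosen after seeing the data, 28 on signal and 0 on counts (46.1% and 0.177%). The median difference, 0.91, was -0.007 on counts (-0.021 without KC 3 and MNC 1), -0.17 by total, -0.29 by the 100 highest, -0.0455 by quantiles, -1.11 by ligation controls, 1.75 with that filter, 0.51 with the pseudocount of 10, 0.55 with the negative control subtracted, and 0.64 to 1.05 with 1 sample left out. The replicate block gave 20 calls (36.4%, against 35% of all rows), but same-numbered samples correlated at 0.0167 to 0.104 and only share a number.

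By ligation controls the difference turned to -1.01 for miR-136, -1.17 for miR-300, -1.30 for miR-323-3p, -0.73 for miR-337-3p, -1.37 for miR-337-5p, -0.89 for miR-369-3p, -1.45 for miR-370, -0.38 for miR-376a, -1.24 for miR-380-5p, -0.73 for miR-433, -0.78 for miR-434-5p, -1.18 for miR-493, -0.57 for miR-539, -1.33 for miR-541, -0.94 for miR-654-3p, -0.62 for miR-666-3p and -1.58 for miR-668. For 5 rows under background in all samples the fitted values, not read as changes, were -1.17 (miR-369-5p), -1.68 (miR-380-3p), -0.27 (miR-410), -1.43 (miR-654-5p) and -1.83 (miR-666-5p). The sign changed for all 31 members taken by the naming rule when scaled by ligation controls, for 24 by the 100 highest rows and for 18 by total. It changed for 14 on counts without KC 3 and MNC 1, for 13 on counts and for 12 by quantiles. In both settings on counts this includes miR-543, whose difference was 0. Among those of the 31 that were called on signal, the difference was, by the 100 highest rows, -0.12 for miR-136, -0.0173 for miR-369-3p and -0.0569 for miR-654-3p. For miR-136, the only such member by total and on counts without KC 3 and MNC 1, it was -0.0014 and -0.0247. The causes were not tested. A count model was not run, since values listed as 1 hide the count in MNC 1, MNC 2 and MNC 4. At these counts, members near the negative controls cannot be ordered.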

Other observations

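The panel held 11 more rows whose hairpins lie between Dlk1 and Dio3 on chromosome 12 but whose numbers the rule did not include. Of these 11, 5 exceeded background in at least 1 sample, where 36.0% of all mouse rows did. None did so in more than 3 samples, and 4 had a mean count under 10. miR-882 was counted 23, 31, 17 and 26 times in KC and 9, 31, 26 and 27 times in MNC. miR-1906, encoded beside Meg3, was counted 19, 23, 15 and 28 times in KC and 12, 18, 36 and 18 times in MNC. miR-758 stayed at 1 to 8 counts. None of these 3 separated KC from MNC on counts. Among the 11 rows, miR-432, miR-453 and miR-770-3p were called higher in KC on signal, where 24.7% of all mouse rows were. Their adjusted p-values by limma were 0.0492, 0.0169 and 0.0462 on signal, and 0.996, 0.778 and 0.996 on counts. Of 6 miRNAs known from neurons (miR-9, miR-124, miR-128, miR-137, miR-138, miR-219), 2 exceeded background in at least 1 sample (33.3%, against 36.0% of all mouse rows). The summed counts of the 6 were 44 to 70 in KC and 38 to 64 in MNC.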
